A study of Mus musculus with 2 samples.

Results

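The tight junction seals neighbouring epithelial cells together near their apical side, and its strands are built of claudins, a family of membrane proteins of which some close and others open the path between cells for ions and water. Occludin and junctional adhesion molecules sit in or beside the strands, and plaque proteins such as ZO-1 and cingulin tie them to actin. In the mammary gland the luminal cells, which line the lumen and make milk, hold these junctions, while the contractile basal (myoepithelial) cells lie outside them against the basement membrane. The luminal layer holds luminal progenitor (LP) cells, marked by Elf5 and Kit, and mature luminal (ML) cells, marked by hormone receptors.

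The 10 genes described here are 6 claudins (Cldn1, Cldn3, Cldn4, Cldn7, Cldn8 and Cldn10), occludin (Ocln), ZO-1 (Tjp1), junctional adhesion molecule A (F11r) and cingulin (Cgn). They were chosen by name, and each of the 10 symbols was found in 1 of the 27998 rows of the gene table. Single cells of mammary glands of adult FVB/NJ female mice, 10 weeks old and with no genetic change or treatment, were captured on the 10X Chromium platform in 2 libraries of 4 pooled mice each. Lineage-negative CD24+ cells gave the total epithelium library, and lineage-negative CD29hiCD24+ cells gave the sorted basal library, the lineage gate being meant to remove red, endothelial and white blood cells. The mice of a pool cannot be told apart, so each library is 1 sample and no difference between classes of cells or between the libraries has a replicate check or a p-value. The total epithelium library held 3302 cells with a median of 2425.5 counts, each count 1 RNA molecule tagged with a unique molecular identifier. The sorted basal library held 4771 cells with a median of 487 counts, and 28 cell barcodes occurred in both.

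The cells of total epithelium were split by summed counts of a few genes. A cell with 10 or more counts of Krt5, Krt14 and Acta2 was called basal, a cell with 10 or more of Prlr, Stc2 and Gpx3 (the ML sum) was called ML, and any other cell with 3 or more of Krt8, Krt18 and Krt19 (the keratin sum) was called LP. This gave 1280 basal, 1133 ML and 766 LP cells, with median depths of 1820, 3403 and 2483.5 counts. There were 26 cells that met the basal and the ML rule together, which were kept apart, and 97 remaining cells that met no rule. Near the limits, 16 cells had a basal sum of 8 to 9 and 14 of 10 to 11, 38 cells had an ML sum of 8 to 9 and 50 of 10 to 11, and 36 other cells had a keratin sum of 1 to 2 against 8 with 3 to 4. Markers not used by the rule followed the classes. Basal markers (Krt17, Myl9, Cnn1, Tagln, Mylk, Oxtr and Trp63) summed to 18897 counts per 1000000 counts of the class (CPM) in basal cells against 132 in LP and 51.3 in ML cells. LP markers (Elf5, Kit, Csn3, Wfdc18, Trf, Aldh1a3 and Cd14) summed to 54306 CPM in LP cells, 4995 in ML and 2608 in basal cells. ML markers (Areg, Ly6d, Cited1, Esr1, Pgr, Foxa1 and Cxcl15) summed to 8588 CPM in ML cells, 834 in LP and 79.2 in basal cells. Over the 3 classes, endothelial markers summed to 4.36 to 6.02 CPM, immune markers to 1.69 to 44.5, pericyte markers to 11.7 to 24.0 and Schwann cell markers to 8.95 to 54.2. Fibroblast markers summed to 1419 CPM in ML cells, 358 in basal and 83.4 in LP cells, and 1281 of the 1419 CPM were Dcn.

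Of the 10 genes, 8 were at least 2-fold higher in LP cells, ML cells or both than in basal cells, and F11r and Tjp1 were not. Levels are CPM of the summed counts of a class with exact Poisson 95% intervals, shares of cells carry exact binomial intervals, and ratios carry exact conditional binomial intervals, all of which cover counting error only. Because each molecule was counted once at its 3′ end, levels of different genes were compared without division by length. A gene entered a comparison with 50 or more counts over both classes. In LP against basal cells 9 members did so, and 7 of them were at least 2-fold higher in LP cells, where 10.9% of all 7301 genes compared were. In ML against basal cells 9 members were compared and 7 were at least 2-fold higher in ML cells, where 18.6% of 8357 genes were. No member was at least 2-fold higher in basal than in LP cells (19.6% of all genes compared) or in basal than in ML cells (17.8%). The median log2 ratio of LP over basal cells was 4.36 for the 9 members against -0.20 for all genes compared, and that of ML over basal cells was 3.99 against 0.07. Tjp1 had too few counts for LP against basal cells, and Cldn1 for ML against basal cells.

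**Figure D1:**
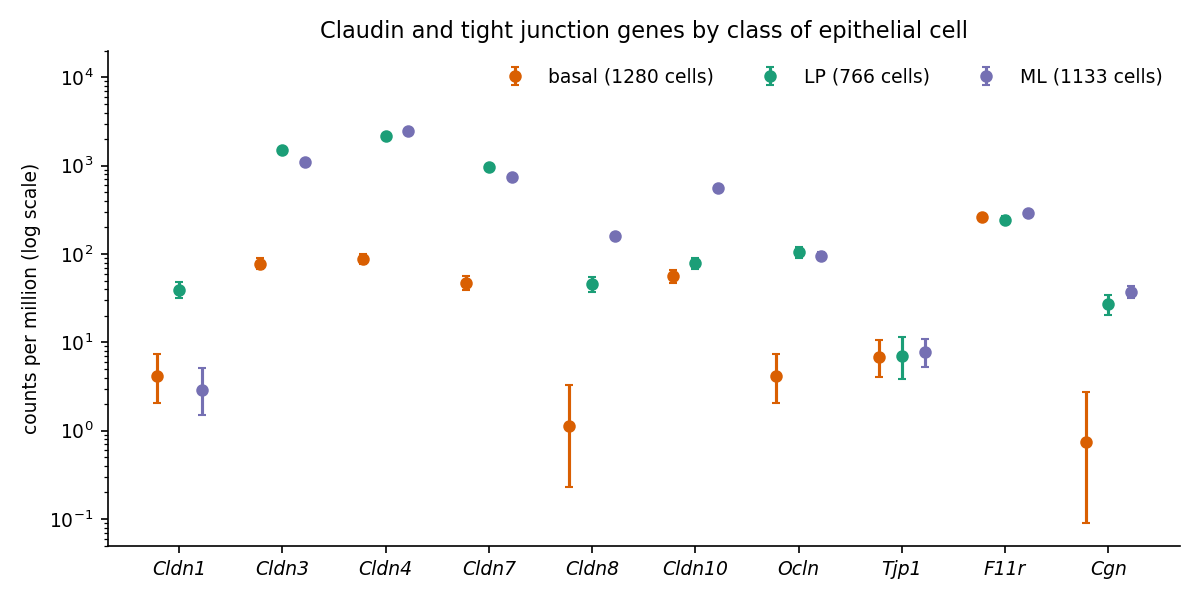
Level of each of the 10 genes in basal, LP and ML cells of total epithelium, in CPM on a log scale; points are values of summed counts and bars exact Poisson 95% intervals. Cldn3, Cldn4 and Cldn7 lie far above basal cells in both luminal classes, Cldn1 is high in LP cells alone, Cldn8 and Cldn10 are highest in ML cells, and F11r and Tjp1 stand at like levels in the 3 classes.

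Cldn4, Cldn3 and Cldn7, claudins of many secretory epithelia, made up most claudin RNA of the luminal cells. Cldn4 stood at 2184 CPM (2122 to 2248) in LP cells, 2451 (2403 to 2499) in ML cells and 87.1 (76.2 to 99.1) in basal cells. It was 25.1-fold higher (22.0 to 28.7) in LP and 28.1-fold higher (24.7 to 32.2) in ML than in basal cells. Cldn3 stood at 1521 CPM (1470 to 1574) in LP cells, 1110 (1078 to 1142) in ML cells and 77.7 (67.4 to 89.0) in basal cells. Cldn7 stood at 978 CPM (937 to 1021) in LP cells, 754 (728 to 781) in ML cells and 47.5 (39.6 to 56.6) in basal cells. Between the luminal classes these 3 genes differed little. Cldn3 was 1.37-fold (1.31 to 1.43) and Cldn7 1.30-fold (1.23 to 1.37) higher in LP cells, while Cldn4 was 1.12-fold (1.08 to 1.16) higher in ML cells, a direction that did not hold when the class totals were scaled by trimmed mean of M-values (TMM) factors (log2 ratio of LP over ML of 0.02 in place of -0.17).

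Cldn3 and Cldn4 are neighbours on chromosome 5, transcribed away from each other with 39279 bases between them. In GENCODE M21 on GRCm38, Cldn3 lies at chr5:134986214-134987472 on the plus strand and Cldn4 at chr5:134945119-134946934 on the minus strand. Cldn7 lies at chr11:69964779-69967885 on the plus strand. Their upstream sequences are shown because the 3 genes share one pattern over the classes. Each runs 5′ to 3′ over the 250 bases before the first RefSeq start site (GRCm38.p6) at chr5:134985964-134986213 (plus strand), chr5:134946935-134947184 (minus strand) and chr11:69964529-69964778 (plus strand), with any match to the letters CAGGTG, or CACCTG on the other strand, in capitals.
Cldn3: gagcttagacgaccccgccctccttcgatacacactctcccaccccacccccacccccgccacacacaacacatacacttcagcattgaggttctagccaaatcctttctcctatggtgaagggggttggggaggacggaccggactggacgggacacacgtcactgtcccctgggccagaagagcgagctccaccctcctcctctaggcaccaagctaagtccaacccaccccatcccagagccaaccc
Cldn4: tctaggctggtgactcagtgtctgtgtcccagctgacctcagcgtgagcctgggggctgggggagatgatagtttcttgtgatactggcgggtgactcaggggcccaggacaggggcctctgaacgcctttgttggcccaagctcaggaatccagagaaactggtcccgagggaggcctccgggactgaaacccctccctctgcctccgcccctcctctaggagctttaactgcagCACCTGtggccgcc
Cldn7: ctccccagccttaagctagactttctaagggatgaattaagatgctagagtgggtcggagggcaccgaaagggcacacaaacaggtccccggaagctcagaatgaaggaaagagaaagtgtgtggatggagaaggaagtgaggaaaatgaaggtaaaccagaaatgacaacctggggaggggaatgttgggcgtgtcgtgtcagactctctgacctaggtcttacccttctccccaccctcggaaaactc

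The letters CAGGTG form the E-box bound by the Snail and Zeb repressors, which are known to lower claudins, occludin and E-cadherin in other epithelia. They were searched on both strands in 300-base windows, from 250 bases before to 50 after each start site. Windows were found for 9 of the 10 members, 12 windows in all, Cldn8 having no entry. Of these, 6 windows of 5 members (Cldn3, Cldn4, Cldn7, Ocln and F11r) held a match, against 20.2% of all 32851 windows in the table. The windows of the 2 Ocln start sites overlap and both hold the Ocln match printed below. The background is a share of windows and not of genes. A match of Cldn3, Cldn4, Cldn7 and Ocln, the members with a match that were higher in luminal cells, is shown with 10 bases on either side, each on the gene's own strand.
Cldn3, bases 32 to 37 after the start, chr5:134986235-134986260: aagccacaggCAGGTGcaggggcagt
Cldn4, bases 12 to 17 after the start, chr5:134946908-134946933: tttcttgttgCAGGTGcaggcaggaa
Cldn7, second start site, chr11:69965354-69965379: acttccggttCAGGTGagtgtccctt
Ocln, bases 8 to 13 after the first start, chr13:100552696-100552721: atcggagtttCAGGTGaatgggtcac
The letters AACCNGTT, bound by the Grainyhead-like factors, occurred in 0 of the 12 windows and in 1.09% of all windows, and they cannot overlap the E-box letters. A match is a description of the letters only, and F11r, whose level did not follow the other 4, held one too. Cldn1, Cldn10 and Cgn, each at least 2-fold higher in a luminal class than in basal cells, held none. Of the genes for E-box binding repressors, looked up after the motif search, Snai2 had 69 counts in basal cells (26.0 CPM, 20.2 to 32.9), 1 in LP and 0 in ML cells, the last allowing up to 0.726 CPM at 3 counts. Snai1 stood at 8.34 CPM in LP cells, 6.41 in basal cells and 4.11 in ML cells, and Zeb1 and Zeb2 had 3 and 2 counts in basal cells and none in LP or ML cells. Binding of these factors to the members, or repression by them, was not tested.

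At equal depth, these 3 genes were found in many luminal and few basal cells. Each cell was thinned in expectation to 1000 counts, which left out 52 basal, 41 LP and 22 ML cells below that depth. At this depth 65.9% of LP, 75.3% of ML and 4.33% of basal cells held a Cldn4 count, against 81.1%, 92.5% and 6.80% before thinning. The thinned shares for Cldn3 were 73.1%, 62.9% and 4.16%, and those for Cldn7 57.2%, 48.9% and 2.58%. As cells that should lack epithelial claudins, 32 cells rich in collagen and Dcn counts and below the basal and keratin limits were used. No limit was set on the ML sum, and only 23 of them were among the 97 remaining cells. The others met the ML rule and were also counted in the ML class. The 32 cells had a median of 2189 counts. They held a Cldn3 count in 2 cells (6.25%, 0.766 to 20.8), Cldn1, Cldn7 and Tjp1 in 1 cell each and the other 6 genes in 0 cells, which allows a share of up to 9.38% at 3 of 32 cells and up to 10.9% by the exact interval. The basal shares of the claudins, Ocln, Cgn and Tjp1 all fell at or below what this small reference allows. They could therefore not be told from free RNA by their share of cells alone. F11r, found in 37.2% of basal cells (34.5 to 39.9), did not fall that low. By level, Cldn4 stood at 87.1 CPM (76.2 to 99.1) in basal cells and at 0 (0 to 53.1) in the reference. F11r stood at 264 CPM (244 to 284) and 0 (0 to 53.1). For the other claudins, Ocln, Cgn and Tjp1 the intervals of the level overlapped. The part of free RNA was not tested.

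**Figure D2:**
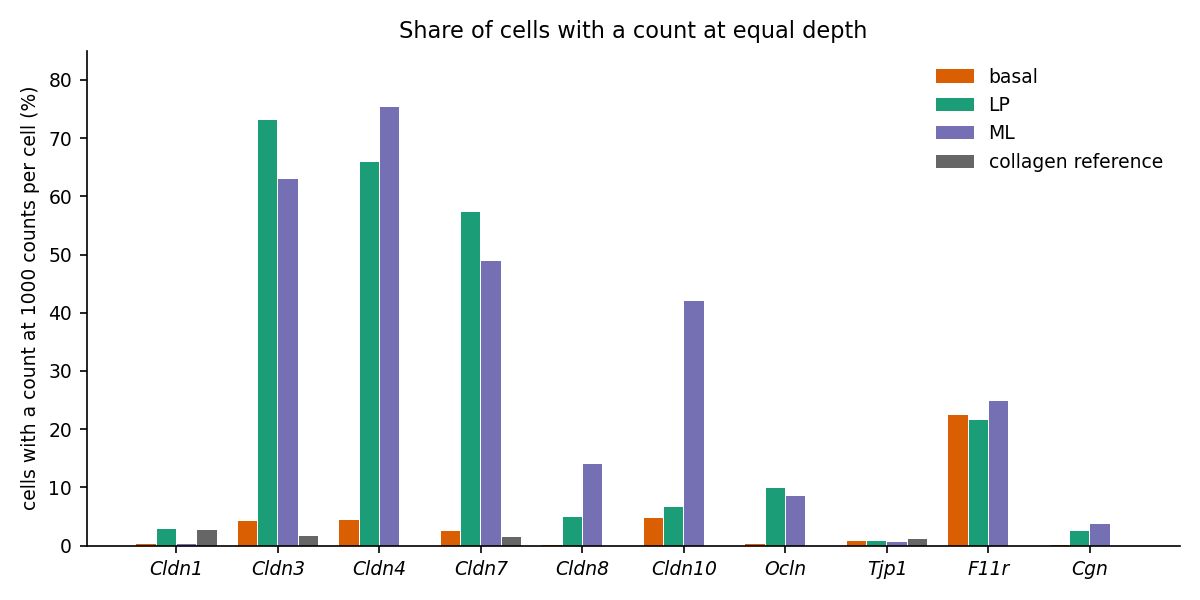
Share of cells with a count of each gene after thinning to 1000 counts per cell, in percent. Bars are for basal, LP and ML cells and the 32 collagen reference cells (30 of them deep enough), some of which also belong to the ML class. Cldn3, Cldn4 and Cldn7 reach 48.9% to 75.3% in the luminal classes and Cldn10 42.1% in ML cells alone, while F11r lies between 21.6% and 24.8% in all 3 classes.

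Cldn10 and Cldn8 stood higher in ML than in LP cells. They were the 2 of 9 members compared that were at least 2-fold higher, and since 16.2% of 7741 genes were too, the number of members is near that of all genes. Cldn10, whose isoforms form channels for cations or for anions, stood at 561 CPM (539 to 584) in ML cells, 78.3 (66.9 to 91.0) in LP cells and 55.8 (47.2 to 65.6) in basal cells. It was 7.17-fold higher (6.13 to 8.43) in ML than in LP cells and 10.1-fold higher (8.51 to 12.0) than in basal cells, and 42.1% of ML cells held a count at equal depth against 6.70% of LP and 4.74% of basal cells. The size of the gap to LP cells depended on the class limits, with a log2 ratio of LP over ML cells of -2.84 as reported, -4.12 with basal and ML limits of 5 counts and -1.43 with limits of 20. The gene spans chr14:118787908-118875489 on the plus strand, and RefSeq gives it start sites at 118787871 and 118854950, whose transcripts cannot be separated by counts at the 3′ end. Cldn8, a barrier claudin of kidney and colon, stood at 161 CPM (149 to 174) in ML cells and 45.4 (36.9 to 55.3) in LP cells, a ratio of 3.54 (2.86 to 4.43). Basal cells held 3 Cldn8 counts (1.13 CPM, 0.233 to 3.31), which puts ML cells 142-fold higher, with an interval from 48.5 to 691. Cldn8 lies at chr16:88560828-88563183 on the minus strand. Dcn, the fibroblast marker named above, stood at 1281 CPM in ML, 345 in basal and 76.4 in LP cells. With cells that held counts of another class left out, which kept 924 ML and 744 LP cells, the log2 ratio of LP over ML cells was -2.98 in place of -2.84 for Cldn10 and -1.84 in place of -1.83 for Cldn8.

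Within the LP class, Cldn10 was held by the cells nearest to the ML rule. This split was made after the class levels were seen. The 116 LP cells with an ML sum of 3 to 9 held 125 of the 169 Cldn10 counts of the class and stood at 414 CPM (345 to 493). Their median depth was 1926 counts, against 2550 in the other 650 LP cells. The 448 LP cells with an ML sum of 0 stood at 20.1 CPM (12.9 to 30.0) and the 202 with a sum of 1 to 2 at 30.1 (18.4 to 46.4). The ratio of the 116 cells to the other 650 was 17.5 (12.3 to 25.2) for Cldn10 and 3.12 (1.99 to 4.82) for Cldn8. It was 1.27 (1.17 to 1.37) for Cldn4, 0.944 (0.852 to 1.04) for Cldn3 and 0.715 (0.619 to 0.823) for Cldn7. In the same 116 cells Areg, an ML marker, stood at 881 CPM against 48.5 in the 650, and Elf5, an LP marker, at 136 against 413. Leaving the 116 cells out turned the direction of Cldn10 between LP and basal cells. Basal cells then stood 2.36-fold above LP cells (1.67 to 3.38), while over the whole class LP cells stood 1.40-fold above basal cells (1.12 to 1.76).

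**Figure D3:**
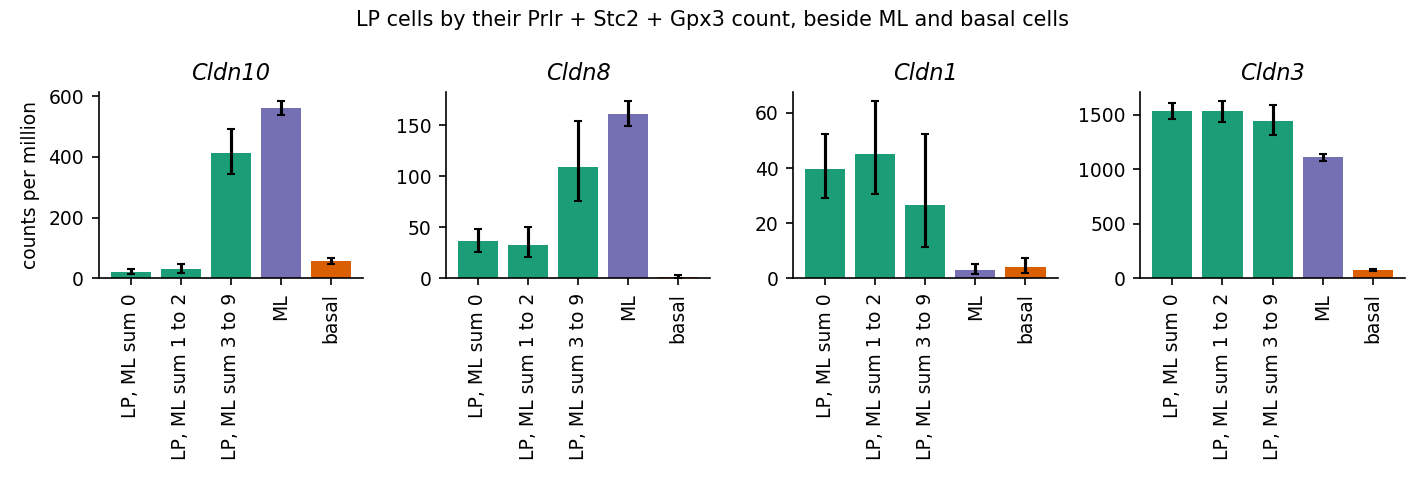
Levels of Cldn10, Cldn8, Cldn1 and Cldn3 in CPM in LP cells with 0, 1 to 2 and 3 to 9 counts of Prlr, Stc2 and Gpx3, beside ML and basal cells; bars are values of summed counts with exact Poisson 95% intervals. Cldn10 steps from 20.1 and 30.1 CPM to 414 CPM in the LP cells with 3 to 9 such counts, near its ML level of 561, while Cldn3 stays between 1448 and 1535 CPM.

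Cldn1, a barrier-forming claudin of skin and other tight epithelia, stood higher in LP than in ML cells. It was the only 1 of 9 members compared that was at least 2-fold higher in LP cells, a share near that of all genes, of which 9.03% of 7741 were. Cldn1 stood at 39.4 CPM (31.5 to 48.7) in LP cells, 2.90 (1.5 to 5.07) in ML cells and 4.15 (2.07 to 7.42) in basal cells, a ratio of 13.6 (7.37 to 27.3) for LP over ML cells and of 9.49 (5.05 to 19.7) for LP over basal cells. Its 85 counts in the LP class came from 55 of 766 cells (7.18%, 5.45 to 9.24), with up to 10 in 1 cell, and the collagen reference held 1 count in 32 cells (interval of the share up to 16.2%), so the share of cells alone does not set LP cells apart from that reference. The gene lies at chr16:26356642-26371841 on the minus strand. LP cells with a Kit count held less of it than those without, at 12.7 CPM (4 counts in 91 cells) against 43.9 (81 counts in 675 cells), a ratio of 0.290 (0.077 to 0.771). The same Kit split gave 0.216 (0.078 to 0.480) for Cldn10 and 0.210 (0.025 to 0.793) for Cgn, and 1.02 to 1.06 for Cldn3, Cldn4 and Cldn7. Areg stood at 19.1 CPM in the cells with Kit and 190 in those without, and the median depths were 3214 and 2400 counts.

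In ML cells that also held LP genes, the claudins with a class pattern moved toward the LP levels. The 44 ML cells with 2 or more Elf5 and Kit counts had 6 Cldn1 counts, as many as the other 1089 ML cells together, a ratio of 15.0 (4.0 to 55.9). In these cells Cldn10 stood at 0.459 (0.356 to 0.583) and Cldn8 at 0.488 (0.300 to 0.752) of the level in the other ML cells. Ratios for Cldn3, Cldn4 and Cldn7 were 1.22, 1.11 and 1.05. The 44 cells had a median of 5739.5 counts against 3332 in the other ML cells and held Csn3, a milk casein and LP marker, at 4080 CPM against 388 in the others. The part of LP and ML cells captured together was not tested, and no doublet caller was run. A split of the ML class by Ly6a, a surface protein, left the levels nearly alike, with ratios of 0.935 to 1.02 for Cldn3, Cldn4, Cldn7, Cldn8 and Cldn10.

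The make-up of the claudin RNA differed between the luminal classes more than its sum. All claudin rows together stood at 4880 CPM in LP, 5144 in ML and 296 in basal cells. Cldn4 took 44.8% (43.8 to 45.7) of LP and 47.6% (47.0 to 48.3) of ML claudin counts. Cldn3 took 31.2% of LP and 21.6% of ML claudin counts, and Cldn7 20.05% and 14.7%. Cldn10 took 1.60% in LP cells but 10.9% (10.5 to 11.3) in ML cells, Cldn8 0.930% and 3.13%, and Cldn1 0.807% and 0.0564%. In basal cells of this library Cldn10 took 18.9% (16.2 to 21.8) of the 785 claudin counts, above its share in either luminal class. The sorted basal library differed, with 25 Cldn10 counts beside 176 of Cldn4, 123 of Cldn3 and 40 of Cldn7. The part of free RNA in these basal counts was not tested.

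**Figure D4:**
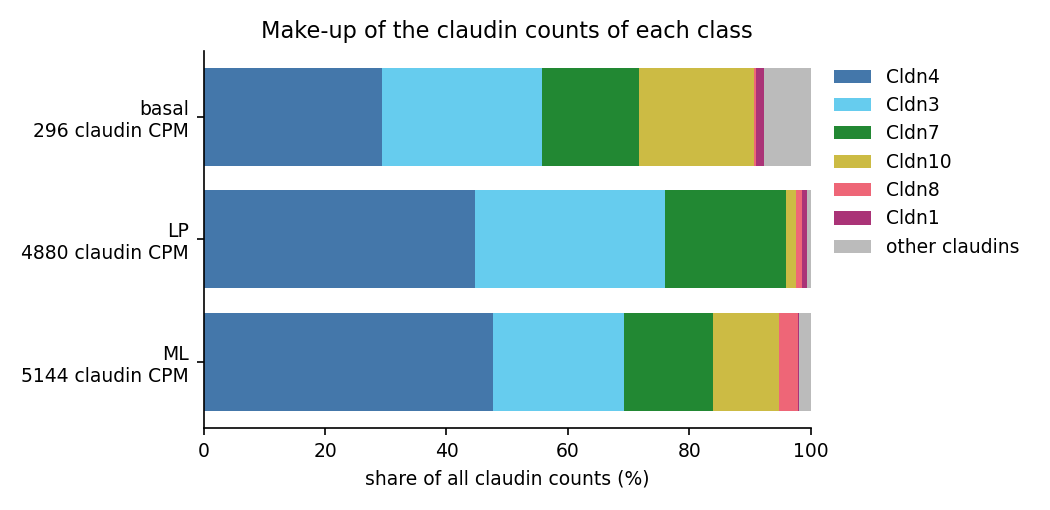
Share of each claudin among all claudin counts of basal, LP and ML cells, in percent; the summed claudin level in CPM stands beside each class. Cldn10 takes 18.9% of the claudin counts of basal cells, 10.9% of those of ML cells and 1.60% of those of LP cells. All are cells of total epithelium, and in the sorted basal library Cldn10 had 25 counts beside 176 of Cldn4.

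Ocln and Cgn were at least 2-fold higher in each luminal class than in basal cells and differed less between the luminal classes. Ocln, a membrane protein of the strands, stood at 104 CPM (91.1 to 119) in LP cells and 95.8 (86.6 to 106) in ML cells. In basal cells it stood at 4.15 CPM (2.07 to 7.42), from 11 counts. Its ratio of LP over ML cells was 1.09, with an interval of 0.920 to 1.28 that holds 1. Ocln lies at chr13:100496507-100552718 on the minus strand. Cgn, which links ZO proteins to actin, stood at 37.5 CPM (31.8 to 43.9) in ML cells and 26.9 (20.4 to 34.7) in LP cells, a ratio of 1.40 (1.03 to 1.92) that was 1.58 (1.13 to 2.27) without the 116 LP cells nearest to the ML rule. Basal cells held 2 Cgn counts, so that LP cells stood 35.6-fold higher with an interval from 9.43 to 301. Cgn lies at chr3:94760069-94786492 on the minus strand.

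F11r and Tjp1 differed by less than 2-fold between the classes. F11r, an adhesion molecule that recruits polarity proteins to cell contacts, stood at 288 CPM (272 to 305) in ML cells, 264 (244 to 284) in basal cells and 245 (224 to 266) in LP cells. The ratio of LP over basal cells was 0.928 (0.827 to 1.04), which turned to a log2 ratio of 0.08 under TMM factors, that of ML over basal cells was 1.09 (0.995 to 1.202) and that of ML over LP cells 1.18 (1.06 to 1.31). At equal depth a count was found in 24.8% of ML, 22.4% of basal and 21.6% of LP cells. F11r was thus the most abundant of the 10 genes in basal cells, above Cldn4 at 87.1 CPM, and in LP cells it stood below Cldn4, Cldn3 and Cldn7. Tjp1, the scaffold ZO-1, had 66 counts in the whole library and stood at 7.74 CPM (5.30 to 10.9) in ML cells, 6.95 (3.89 to 11.5) in LP cells and 6.79 (4.02 to 10.7) in basal cells, intervals that do not tell the classes apart. The ratio of ML over basal cells was 1.14, with an interval from 0.621 to 2.16. F11r lies at chr1:171437535-171464603 on the plus strand and Tjp1 at chr7:65296165-65527781 on the minus strand, where the predicted genes Gm44794 and Gm44792 overlap it on the same strand.

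Within the basal class, Cldn1, Cldn3, Cldn4 and Cldn7 were higher in cells that also held luminal keratin counts. Of the 1280 basal cells, 701 had a keratin sum of 3 or more and 579 had less. This split too was added after the levels were seen. In the 701 cells Cldn7 was 6.26-fold (3.37 to 12.9), Cldn3 5.28-fold (3.35 to 8.73) and Cldn4 2.23-fold (1.62 to 3.12) higher than in the 579, and all 11 basal Cldn1 counts lay in the 701. F11r did not differ, with a ratio of 1.07 (0.914 to 1.25), and Cldn10 was lower in the 701, with a ratio of 0.599 (0.428 to 0.838). Cldn8 had 3 counts in all, too few to compare. Csn3 moved the same way as Cldn3 and Cldn7, at 387 CPM in the 701 and 18.1 in the 579. Areg, an ML marker, stood at 28.3 CPM (20.8 to 37.7) and 18.1 (10.7 to 28.6), intervals that overlap. The median depths were 2061 counts in the 701 and 1559 in the 579. The part of free RNA, of cells captured together and of RNA made by basal cells was not tested. Without the 701 cells, the log2 ratio of LP over basal cells was 6.17 in place of 4.29 for Cldn3, 5.47 in place of 4.65 for Cldn4 and 6.47 in place of 4.36 for Cldn7. The 579 cells held Cldn10 at 74.5 CPM (58.5 to 93.5) and F11r at 253 CPM (222 to 286), beside Cldn4 at 49.3 (36.5 to 65.2), Cldn3 at 21.1 (13.1 to 32.3) and Cldn7 at 11.1 (5.53 to 19.8).

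In the sorted basal library, which is less deep, F11r was near its level in basal cells of total epithelium and Cldn10 was below it. The first values are for all sorted cells, to which no rule on basal genes was applied. Among the 4771 cells F11r was again the most abundant member, at 282 CPM (262 to 304), or 1.07 times (0.964 to 1.19) the basal class of total epithelium. Cldn4 stood at 70.7 CPM (60.7 to 82.0), Cldn3 at 49.4 (41.1 to 59.0) and Cldn7 at 16.1 (11.5 to 21.9), or 0.812, 0.636 and 0.338 times the basal class. In the 1758 sorted cells that met the same basal rule these ratios were 0.421 (0.298 to 0.583), 0.408 (0.281 to 0.579) and 0.0702 (0.0188 to 0.184). These 1758 cells had a median of 647 counts, against 487 in all sorted cells and 1820 in the basal class. The basal and keratin limits are fixed counts, harder to reach in shallow cells, so the same rule selects more strictly in the sorted library. Cldn10 stood at 10.0 CPM (6.50 to 14.8), or 0.180 times (0.113 to 0.276), and 0.164 times (0.0803 to 0.303) under the same rule. Cldn1 had 0 counts and Cldn8 1 count. Tjp1, with 35 counts, stood 2.07-fold higher (1.14 to 3.89) than in the basal class, but 1.60-fold (0.719 to 3.45) under the same rule, an interval that holds 1. Cldn10 stood at 9.82 CPM (3 counts) in the 424 sorted cells with a keratin sum of 3 or more and 10.1 CPM (22 counts) in the rest. That ratio of 0.974 has an interval from 0.187 to 3.24, too wide to tell whether Cldn10 followed the keratin sum here. Cldn7, Cldn4 and Cldn3 were 18.8-fold, 13.8-fold and 9.13-fold higher in the 424. Cgn had 13 counts, all in 4 of the 424 cells and none in the 1758 cells that met the basal rule. The libraries differ in gate, mice and depth, which cannot be told apart.

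**Figure D5:**
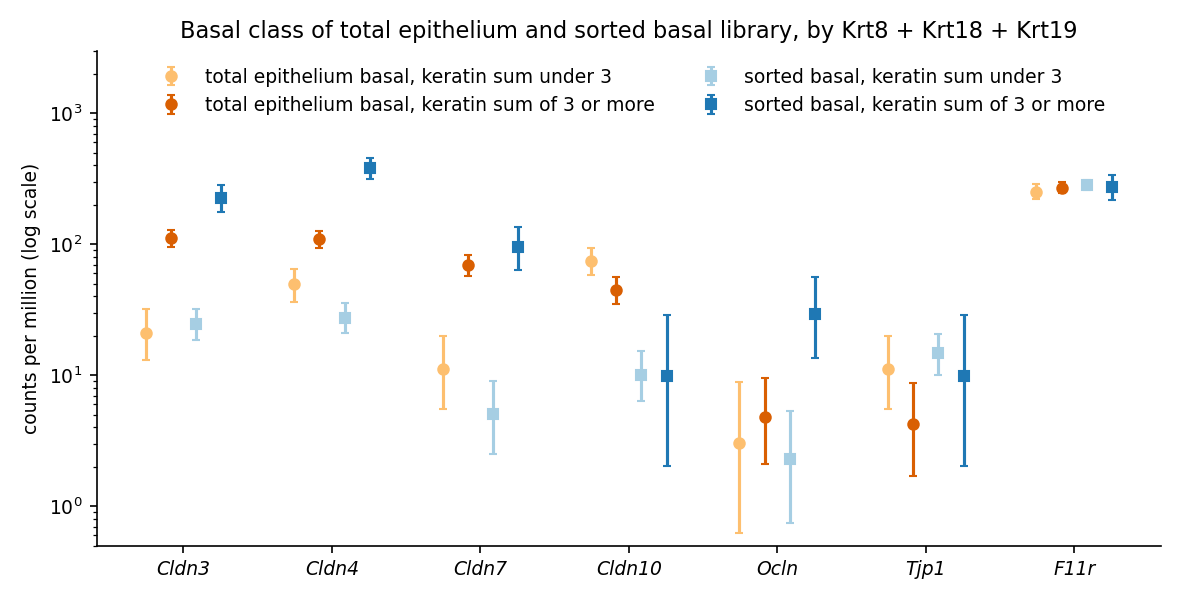
Levels of 7 genes in CPM on a log scale, in basal cells of total epithelium and in all cells of the sorted basal library, each split by a keratin sum (Krt8, Krt18 and Krt19) under 3 or of 3 or more; bars are exact Poisson 95% intervals. Cldn3, Cldn4 and Cldn7 are higher with the keratin sum in both libraries, F11r stays between 253 and 284 CPM, and Cldn10 lies lower in the sorted library whatever the keratin sum.

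Among the 17 other claudins of the gene table, 7 had no count and 4 had 50 or more. Cldn6, a claudin best known from embryonic epithelia, stood at 88.3 CPM in ML cells (365 counts), 6.02 in LP and 0.754 in basal cells, and so shared the order of Cldn8. Its level in LP cells was 0.0682 (0.0360 to 0.118) of that in ML cells. Cldn12 went the other way, at 18.1 CPM in basal cells against 5.10 in LP and 4.11 in ML cells, with a ratio of LP over basal cells of 0.282 (0.132 to 0.550). Cldn23 stood at 19.5 CPM in LP, 10.6 in ML and 2.64 in basal cells. Cldn5, the claudin of blood vessels, had 62 counts in the library and only 1 in the 3 classes.

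Of 9 other strand and junction genes, 5 could be compared between ML and basal cells, and 3 were at least 2-fold higher in ML cells (18.6% of all genes) and none at least 2-fold lower (17.8%). Between LP and basal cells 1 of 4 was higher (10.9% of all genes) and none lower. Higher in ML than in basal cells were Marveld2 (22.5 against 0.377 CPM), Marveld3 (49.4 against 3.77 CPM) and Lsr (376 against 164 CPM). Marveld2 is tricellulin, at corners where cells meet, and Lsr is a tricellular junction receptor. The 1 compared gene higher in LP than in basal cells was Marveld3, at 60.2 CPM in LP cells. Marveld2 fell under the minimum for LP against basal cells, with 47 counts in LP and 1 in basal cells. Cxadr, a virus receptor at cell contacts, stood at 274 CPM in LP, 282 in ML and 164 in basal cells. Igsf5, a further junctional adhesion molecule, was 4.73-fold (2.64 to 8.86) higher in LP than in ML cells. It too was under the minimum for LP against basal cells, with 42 counts in LP and 4 in basal cells. Of the genes with too few counts for the comparisons with basal cells, 3 had most of their counts there. Jam2 had 42 in basal cells against 5 in LP and 3 in ML cells, Jam3 had 20 against 0 and 1, and Ildr2 had 17 against 0 and 7, the last 2 named after their values were seen.

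Plaque and polarity genes went both ways. Of 17 compared between LP and basal cells, 5 were at least 2-fold higher and 4 at least 2-fold lower in LP cells, where 10.9% of all genes were higher and 19.6% lower. Between ML and basal cells 2 were higher and 6 lower, beside 18.6% and 17.8% of all genes. Those higher in LP cells were Tjp3 (ZO-3, 17.9-fold, 10.2 to 34.2), Crb3 (an apical polarity protein, 7.13-fold, 5.36 to 9.65), Cgnl1 (paracingulin, 3.94-fold), Pard6b (2.37-fold) and Mllt4 (afadin, 2.20-fold). In ML cells Tjp3 was 11.1-fold and Crb3 5.94-fold higher than in basal cells, and Cgnl1 was 2.36-fold higher in LP than in ML cells. Those at least 2-fold lower in LP cells were Mpdz (a multi-PDZ scaffold, ratio 0.105), Magi1 (0.301), Prkci (the atypical protein kinase C, 0.321) and Amotl1 (0.415), and in ML cells Pard3 (0.382) was lower as well. Prkcz (another atypical protein kinase C) and Magi3 were under the minimum against basal cells, with 3 and 9 counts there, 35 and 21 in LP cells, and 44 and 36 in ML cells.

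Of 5 claudin partners and regulators compared, 4 were at least 2-fold higher in each luminal class than in basal cells, beside 10.9% of all genes for LP and 18.6% for ML cells. Epcam, which binds and stabilises Cldn7, stood at 5557 CPM in LP, 4707 in ML and 1143 in basal cells, a ratio of 4.86 (4.67 to 5.06) for LP over basal cells. Cdh1, E-cadherin, was 3.34-fold and 3.92-fold and Grhl1 4.72-fold and 7.80-fold higher in LP and ML than in basal cells. Grhl2, a known activator of claudin genes, stood at 18.1 CPM in LP, 21.1 in ML and 18.5 in basal cells.

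Between cells of a class, Cldn4 had the highest ratio of variance to mean of the 10 genes in LP and ML cells, a measure that can grow with the mean, which was also highest for Cldn4. At 1000 counts per cell its variance was 4.44 times its mean in LP cells and 3.23 times in ML cells, against 1.47 and 1.29 for Cldn3, 1.28 and 1.23 for Cldn7 and 1.10 and 1.07 for F11r. The 77 LP cells with the most Cldn4 held 40.8% of the Cldn4 counts of the class, and the 77 with the most Cldn3 held 28.5% of the Cldn3 counts, while this share was 60.0% for Ocln and 91.7% for Cldn10, which have lower levels, and the cell with the most Cldn4 had 69 counts, an ML cell. The genes whose level followed Cldn4 most closely across cells were Sfn, the 14-3-3 sigma protein (Pearson r of 0.350 over 766 LP cells and 0.417 over 1133 ML cells), and Krt18 (0.328 and 0.384), followed by Hbegf in LP (0.266) and H3f3b in ML cells (0.351). For Cldn7 they were Plet1 (0.278), Lcn2 (0.263) and Mfge8 (0.241) in LP cells. Cldn3 and F11r in both luminal classes, Cldn7 in ML cells, and Cldn8, Cldn10 and Ocln in ML cells had no gene at 0.2 or more, and the other members had too few counts for this. Correlations between members over cells lay between -0.055 and 0.157. All were computed on log counts scaled to 10000 per cell, share library and depth, and are weakened by sparse counts.

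The 26 cells that met both rules held claudin RNA at 3464 CPM, with Cldn4 at 1615, Cldn3 at 739 and Cldn10 at 313 CPM. These levels lay between those of basal and ML cells for all 3 genes. Their median depth of 4609 counts was above that of every class.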

How the data were processed

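The authors ran Cell Ranger, version 1.2.1 per the labels and 2.0 per the study's methods, on 3′ 10X reads (mm10 per the labels) and deposited a matrix of molecule counts per gene and cell for each library. Strand handling was not given in the sources used here. The study's summary says that cells of low coverage were dropped, but gives no limit for the 10X libraries. Its cell numbers differ slightly from the 3302 and 4771 cells of the deposited matrices. All deposited cells were used. Counts were summed per class and divided by the class total (2158548 counts for LP, 2651803 for basal and 4132895 for ML). With 1 library per group no test was run. A member was compared with 50 or more counts over both classes and called at 2-fold. Intervals are at 95%, the floor is 3 counts, and the 9 rule genes were left out of the background. Other genes were named if they had 50 or more counts and a 2-fold ratio, or were the 2 most abundant of their list. Of the listed genes, 2 that met this rule are counted but not reported here. Genes were matched to a member by Pearson correlation within a class, given 300 or more counts. Ratio calls and thinning were tested on simulated data. No doublet caller was run. The members, lists and classes were chosen with earlier results of these data known. Tools were Python 3.11.15, scipy 1.17.1 and, for TMM factors, edgeR 4.0.16.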

Additional observations from a re-analysis of the deposited data

How the results depend on the processing

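The 6 counts of members past 2-fold were recomputed under 15 alternatives each (class limits, purity, depth, scaling, count minimum and fold), and each stayed within 1.5 times the value reported. With LP cells of an ML sum of 3 or more left out, chosen after seeing the data, the members higher in basal than LP cells went from 0 to 1 (Cldn10, log2 ratio of LP over basal cells of -1.24 in place of 0.49), and those higher in LP than basal cells from 7 to 6, since Cgn fell under the count minimum. Cldn10 between LP and basal cells also changed sign, without reaching 2-fold, with basal and ML limits of 5 counts (-0.77), and stood at 1.90 with limits of 20. Of 326 log2 ratios of single members under these alternatives, 277 stayed within their counting interval and 49 did not. TMM factors moved the median of all genes by 0.19 (log2) for LP over basal and LP over ML cells. Counting the 26 cells of both rules as basal lowered the log2 ratio of ML over basal cells from 7.15 to 4.63 for Cldn8. Leaving out a replicate was not possible with 1 library per group. Depth limits Tjp1, Cgn, Cldn1, Cldn8 and Ocln in basal cells, where 2 to 18 counts were held.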
